A study of Mus musculus with 8 samples.

Results

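The genes described here are 27 genes that mouse liver uses to make cholesterol and to regulate that synthesis, out of 22155 genes in the deposited count table. They were taken by gene symbol from a pathway list drawn up with earlier results of these data known, and all 27 were in the table and passed the filter on low counts, which left 13999 genes for testing. They comprise 8 genes of the mevalonate steps (Acat2, Hmgcs1, Mvk, Pmvk, Mvd, Idi1, Fdps and Ggps1) and 13 genes of the squalene and sterol steps (Fdft1, Sqle, Lss, Cyp51, Tm7sf2, Lbr, Msmo1, Nsdhl, Hsd17b7, 0610007P14Rik, Ebp, Sc5d and Dhcr7). A further 4 genes encode the switch that controls the pathway (Srebf2, Scap, Insig1 and Insig2) and 2 encode proteins that move sterol within the cell (Stard4 and Npc1).

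Liver RNA was sequenced in 8 libraries that fall into 4 groups of 2, and each library gave between 26904021 and 33488609 counts. Yap1 knockout livers carried floxed Yap1 alleles deleted in hepatocytes by an AAV8-iCre virus, and Yap control livers came from Yap1 floxed homozygotes given an AAV8-GFP virus. Ctgf knockout livers were Ctgf conditional knockouts, whose Cre driver the sources used here do not give, and Ctgf control livers came from Ctgf floxed homozygotes, for which no virus is named. Mice of all 4 groups were adults of 8 to 10 weeks, C57BL/6 by label, and all were injured in the same way, so no group shows uninjured liver. They took the Lieber-DeCarli liquid diet with 1% ethanol for 2 days and 2% ethanol for 10 days, and received 1 µl per g of carbon tetrachloride, a toxin of pericentral hepatocytes, 2 days before the liver was taken. Nothing in the labels states that the 2 replicates of a group were different animals, and the p-values therefore measure only how these libraries vary, which may be technical.

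Cholesterol is built from acetyl-CoA through mevalonate, isoprenoid diphosphates, squalene and lanosterol, and hepatocytes are a main site of this work. The transcription factor SREBP2, the product of Srebf2, is held in the endoplasmic reticulum with its escort SCAP by the INSIG proteins while sterol is plentiful. When sterol falls, SCAP carries SREBP2 to the Golgi, where proteases free the part that enters the nucleus and raises transcription of nearly every enzyme of the pathway. Nuclear SREBP2 is known to work beside the CCAAT-binding factor NF-Y and the GC-box factor Sp1 at these promoters.

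The members' promoters are shown because SREBP2 and its partners bind known letters and 26 of the 27 genes had fold changes above 0 in the Yap1 comparison. RefSeq promoter entries (GRCm38.p6, 250 bases before to 50 bases after the annotated start) were found for 22 of the 27 genes, all except Fdft1, Fdps, Sqle, Stard4 and Npc1. CCAAT, on either strand, was present in 19 of the 22 (86.4%), against 42.6% of the 10813 tested genes with an entry and 41.1% of all 27025 genes in the promoter table, and was missing in 0610007P14Rik, Acat2 and Scap. The GC box GGGCGG was present in 20 of the 22 (90.9%), against 65.6% of the tested genes and 38.2% of all genes, and was missing in Ggps1 and Pmvk. The sterol regulatory element core TCACNCCAC was present in 1 of the 22 (4.55%), Hmgcs1, against 162 of the 10813 tested genes and 388 of all 27025. For a gene with several entries a match in any of them was counted, for members and other genes alike, and no test was made of these shares. A match is a run of letters and not a measured binding site, and 0 of the 88 matches in the members shared bases with a match of another of these motifs. The windows below end at the base before the annotated start and read 5′ to 3′ on the gene's strand, with capitals for the matches of any of these motifs on either strand, so that an inverted CCAAT box reads ATTGG. The first 5 genes had the largest fold changes in the Yap1 comparison, and Ebp had the smallest.
Idi1 (chr13:8885506-8885605, plus strand): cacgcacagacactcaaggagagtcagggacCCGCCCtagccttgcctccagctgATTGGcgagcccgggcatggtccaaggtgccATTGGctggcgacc
Lss (chr10:76531505-76531604, plus strand): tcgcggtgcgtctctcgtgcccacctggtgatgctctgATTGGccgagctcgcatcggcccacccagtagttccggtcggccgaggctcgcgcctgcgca
Nsdhl (chrX:72918421-72918520, plus strand): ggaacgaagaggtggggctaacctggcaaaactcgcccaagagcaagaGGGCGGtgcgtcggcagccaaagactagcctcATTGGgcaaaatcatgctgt
Hsd17b7 (chr1:169969206-169969305, minus strand): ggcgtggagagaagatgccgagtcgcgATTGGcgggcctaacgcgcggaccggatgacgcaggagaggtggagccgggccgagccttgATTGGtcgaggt
Hmgcs1 (chr13:119690171-119690350, plus strand): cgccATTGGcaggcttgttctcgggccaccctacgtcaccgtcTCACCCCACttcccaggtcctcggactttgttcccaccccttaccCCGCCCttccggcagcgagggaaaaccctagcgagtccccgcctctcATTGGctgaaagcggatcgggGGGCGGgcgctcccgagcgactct
Ebp (chrX:8193513-8193612, minus strand): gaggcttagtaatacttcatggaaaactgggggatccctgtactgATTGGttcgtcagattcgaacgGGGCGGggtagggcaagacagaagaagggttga
All 6 windows held a CCAAT match, Ebp among them, so this motif did not part Ebp from the genes with large fold changes. The Hmgcs1 window also held the sterol regulatory element core, from 137 to 129 bases before the start, with GC boxes nearer to it.

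**Figure D1:**
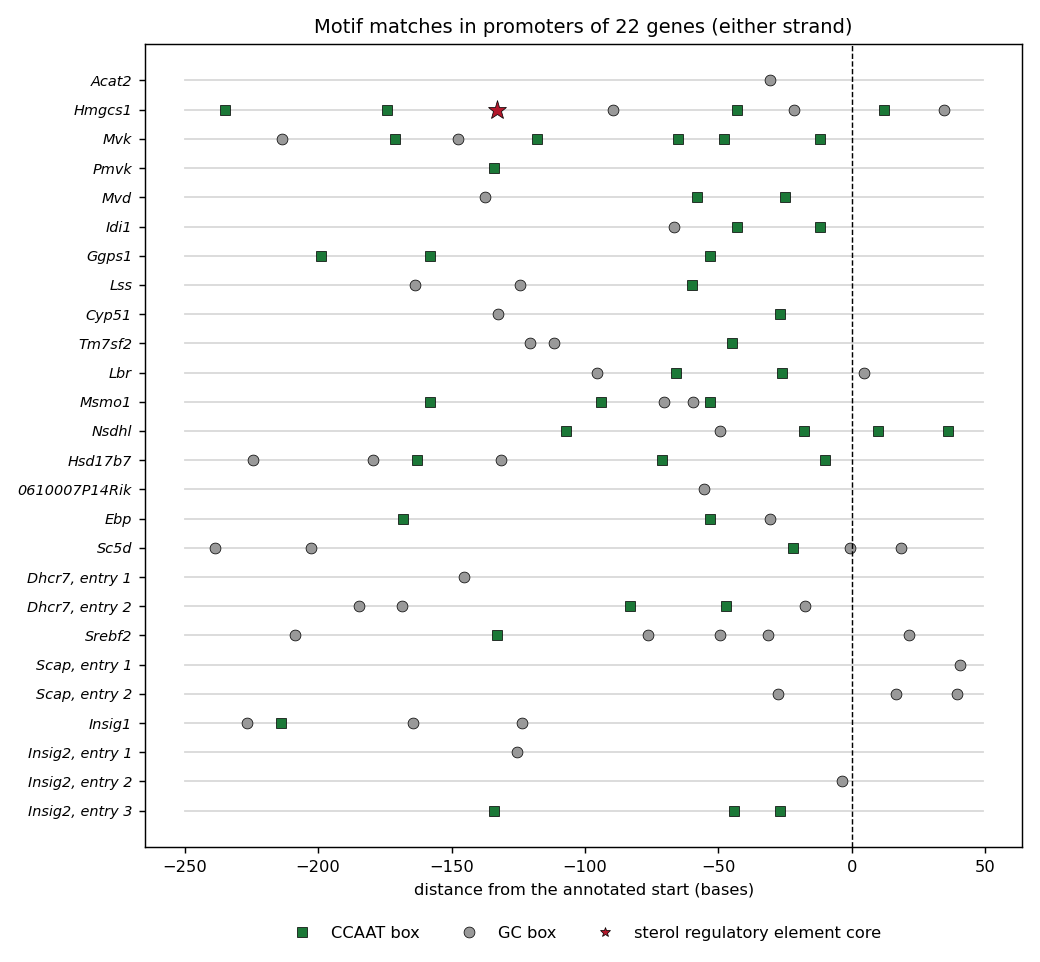
Positions of CCAAT (squares), GC box (circles) and sterol regulatory element core (star) matches on either strand, in bases from the annotated start, in the RefSeq promoter entries of 22 of the 27 genes that held a match; each line is 1 entry. CCAAT squares are present for 19 genes and the star for Hmgcs1 alone.

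The targeted genes and the libraries were looked at first. Yap1 had 31 and 32.5 CPM in Yap1 knockout livers, against 107 and 76.1 CPM in Yap control livers, which is a 2.88-fold lower level with an edgeR adjusted p of 0.0557, over the transcript of all liver cell types. Ctgf had 406 and 324 CPM in Yap1 knockout livers, against 96.8 and 50.1 CPM in Yap control livers (log2 fold change 2.31, SE 0.718, adjusted p = 0.250). It stood at 8.02 CPM in Ctgf knockout 1 and 49.2 CPM in the library labelled Ctgf knockout 2, against 28.8 and 32.1 CPM in the Ctgf controls. The Ctgf level of the library labelled Ctgf knockout 2, over the transcript of all liver cell types, thus did not bear out its label. Whether the label is wrong was not tested, and each result of the Ctgf line is read with that in view. Yap control 2 stood apart from the other libraries. Exocrine pancreas markers summed to 10332 CPM in Yap control 2, against 0.138 CPM in Yap control 1 and 0.0284 to 0.208 CPM in the other 6 libraries. Hepatocyte markers (Alb, Ttr and 6 others) were high in all libraries, with a summed level, most of it Alb, of 40915 and 57161 CPM in Yap1 knockout livers, against 40097 and 79012 CPM in Yap control livers. Of these 8 markers 2 were higher and 1 was lower with no overlap in the Yap1 comparison, against 23.6% and 20.8% of all genes tested. The others overlapped, with log2 fold changes of -0.25 for Alb, -0.82 for Apoa1, -1.12 for Apoa2, -0.48 for Serpina1c and 0.28 for Ass1. Tat, tyrosine aminotransferase, had 1696 and 2296 CPM in Yap1 knockout livers, against 465 and 862 CPM in Yap control livers (log2 fold change 1.59, edgeR adjusted p = 0.153, DESeq2 adjusted p = 3.98e-04). For Cps1, a urea cycle enzyme, the log2 fold change was 1.11 (edgeR adjusted p = 0.139, DESeq2 adjusted p = 3.47e-06), and for Ttr it was -0.97 (edgeR adjusted p = 0.343, DESeq2 adjusted p = 0.131). The part of these hepatocyte genes in the results below was not tested.

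In Yap1 knockout livers against Yap control livers, the log2 fold change was above 0 for 26 of the 27 cholesterol genes, and none passed the test over all genes. Its median was 1.11, against a median of -0.0046 over all 13999 genes tested, of which 49.6% were above 0. It ran from -0.02 for Ebp, a sterol isomerase, to 2.66 for Idi1, an isoprenoid isomerase. Both Yap1 knockouts lay above both Yap controls for 22 of the 27 genes and below them for 0, where 23.6% of all genes tested lay above and 20.8% below. Both also lay above all 6 other libraries for 21 of the 27, against 12.9% of all genes tested. With RLE, another scaling of the libraries, this count was 20. By edgeR's quasi-likelihood F test with Benjamini-Hochberg adjustment over 13999 genes, 0 of the 27 passed an adjusted p of 0.05, as did 4 of all genes (0.0286%), and the members' adjusted p ran from 0.0557 to 0.982. At an unadjusted p under 0.05, 17 members were higher and 0 lower, against 6.64% and 7.14% of all genes tested. DESeq2 called 11 of the 27 higher, against 2.06% of the genes it tested, and limma-voom called 0, against 0.0357%. Each fold change here rests on 2 libraries against 2, and a bulk liver library cannot tell fewer cells of a type from less RNA per cell.

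**Figure D2:**
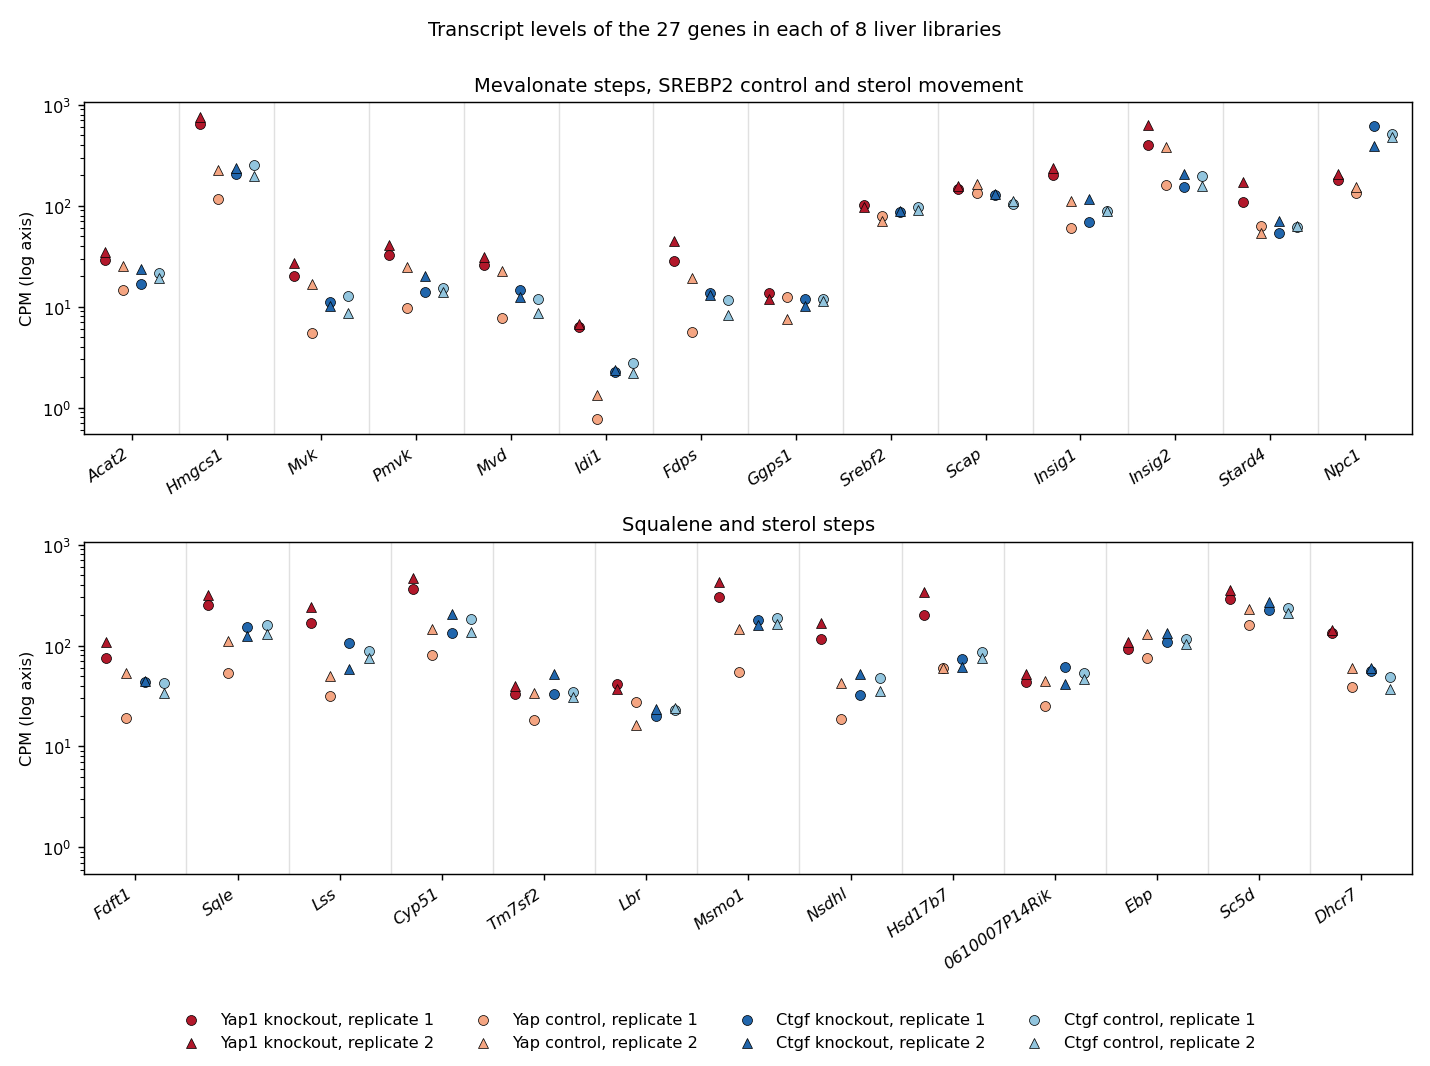
Transcript level in CPM (log axis) of the 27 genes in each of the 8 libraries, with a circle for replicate 1 and a triangle for replicate 2 of each group. The Yap1 knockouts (dark red) lie above the other 6 libraries for 21 genes, and Npc1 is lower in all 4 Yap-line libraries than in the 4 Ctgf-line libraries.

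The Yap controls differed from each other more than the replicates of any other group, and they set the size of these fold changes. The 27 genes summed to 4054 and 5254 CPM in Yap1 knockout livers, against 1470.5 and 2402 CPM in Yap control livers. They summed to 2631 and 2621 CPM in the libraries labelled Ctgf knockout, against 2710 and 2364 CPM in the Ctgf controls. The Yap1 knockouts therefore held the highest sums and Yap control 1 the lowest, with Yap control 2 among the Ctgf-line libraries. Npc1 alone gave 154 CPM of the sum in Yap control 2, against 388 to 624 CPM in the Ctgf-line libraries. Insig2 went the other way, with 381 CPM in Yap control 2 against 154 to 207 CPM in the Ctgf-line libraries. The place of Yap control 2 thus rests partly on single genes that pull it in opposite directions. The median fold between replicates over the 27 genes was 1.21 in the Yap1 knockouts and 1.75 in the Yap controls, against 1.14 and 1.47 over all genes, and it was 1.21 and 1.14 in the Ctgf knockout and Ctgf control pairs. Yap control 2 was higher than Yap control 1 for 22 of the 27 genes, and Yap1 knockout 2 higher than Yap1 knockout 1 for 24.

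Set against each control alone, the direction remained. The mean of the Yap1 knockouts lay above Yap control 1 for 27 of 27 genes, with a median log2 ratio of 1.87. It lay above Yap control 2 for 25 of 27 with a median of 0.76, and above the mean of the Ctgf controls for 24 of 27 with a median of 1.18. The 3 sets share the same knockout libraries, so they are not independent of each other. In the fit, leaving out Yap control 2 gave a median log2 fold change of 1.87 and 6 members called, against 0.28% of all genes. Leaving out Yap control 1 gave a median of 0.73 and 12 members called, where 25.8% of all genes were called. In these fits, and in the next fit, a group left with 1 library was assumed to vary like the groups of 2. With Yap control 2 and the library labelled Ctgf knockout 2 both left out, the median was 1.87 and 20 of the 27 genes passed, against 6.58% of all genes. The sample titles assign each Yap control to a numbered knockout, and with the replicate number as a block edgeR called 1 of the 27, Lss (adjusted p = 0.0487), against 0.136% of all genes.

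**Figure D3:**
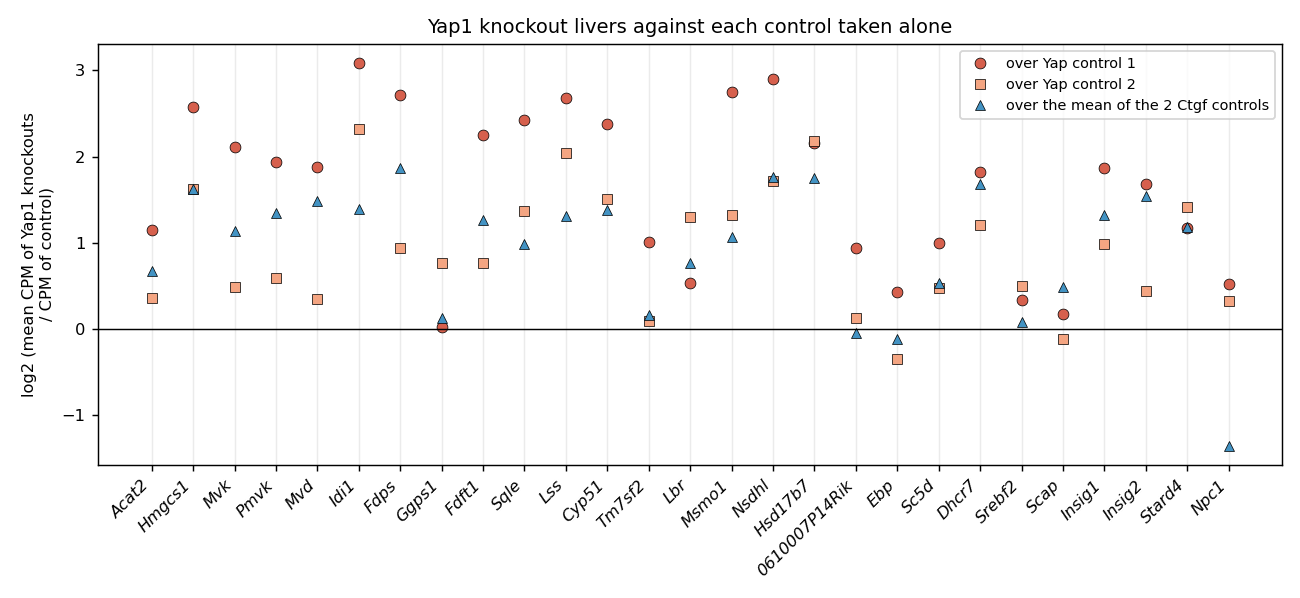
Log2 ratio of the mean CPM of the 2 Yap1 knockouts to the CPM of Yap control 1 (circles), of Yap control 2 (squares) and to the mean of the 2 Ctgf controls (triangles), for each of the 27 genes. The circles have a median of 1.87, the squares of 0.76 and the triangles of 1.18; Npc1 is the gene whose triangle lies far below 0.

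The mevalonate steps turn acetyl-CoA into isoprenoid diphosphates, and all 8 genes of this list had log2 fold changes above 0 in the Yap1 comparison (median 1.10). Of the 8, 7 were higher with no overlap between the groups, against 23.6% of all genes tested. By edgeR 0 were called, and DESeq2 called 2 higher, against 2.06% of the genes it tested. Idi1, the isomerase that makes dimethylallyl diphosphate (GRCm38 chr13:8885501-8892451, plus strand), had the largest fold change of the 27. Idi1 had 6.35 and 6.78 CPM in Yap1 knockout livers, against 0.774 and 1.32 CPM in Yap control livers. Libraries labelled Ctgf knockout had 2.27 and 2.35 CPM of it, against 2.77 and 2.22 CPM in Ctgf control livers. Every Ctgf-line library thus lay between the Yap1 knockouts and the Yap controls, and the knockouts were 6.33-fold higher than the Yap controls (log2 fold change 2.66, SE 0.371, adjusted p = 0.0557, DESeq2 adjusted p = 2.11e-07). Its transcript was scarce, with as few as 28 reads in a library, the fewest of any of the 27 genes.

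Hmgcs1, the cytosolic synthase that makes HMG-CoA (GRCm38 chr13:119690379-119708260, plus strand), was among the most abundant. Hmgcs1 had 649.8 and 751 CPM in Yap1 knockout livers, against 117 and 228 CPM in Yap control livers. Its level was 206 and 238 CPM in libraries labelled Ctgf knockout, against 256 and 199 CPM in Ctgf control livers. The Yap1 knockouts stood above all other libraries, 4.06-fold over the Yap controls (log2 fold change 2.02, SE 0.340, adjusted p = 0.0959, DESeq2 adjusted p = 1.63e-06). Fdps, the synthase of farnesyl diphosphate (GRCm38 chr3:89093588-89101959, minus strand), had 28.2 and 45.1 CPM in Yap1 knockout livers, against 5.59 and 19.2 CPM in Yap control livers (log2 fold change 1.57, SE 0.525, adjusted p = 0.275). Here the Yap controls differed from each other by more than the nearest knockout differed from the higher control.

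The kinases and the decarboxylase between these steps had smaller fold changes. Mvk, mevalonate kinase, had 20.1 and 27 CPM in Yap1 knockout livers, against 5.45 and 16.9 CPM in Yap control livers (log2 fold change 1.09, adjusted p = 0.371). Pmvk, phosphomevalonate kinase, had 32.8 and 41.2 CPM in Yap1 knockout livers, against 9.71 and 24.7 CPM in Yap control livers (log2 fold change 1.11, adjusted p = 0.318). Mvd, which decarboxylates mevalonate diphosphate, had 26.1 and 31.4 CPM in Yap1 knockout livers, against 7.80 and 22.6 CPM in Yap control livers (log2 fold change 0.92, adjusted p = 0.400). In all 3 genes the groups did not overlap, and Yap control 2 lay nearer to the lower knockout than to Yap control 1. Acat2, the cytosolic thiolase that joins acetyl-CoA units, had 29.3 and 34.9 CPM in Yap1 knockout livers, against 14.5 and 25.1 CPM in Yap control livers (log2 fold change 0.70, adjusted p = 0.366). Ggps1, which draws farnesyl diphosphate off toward protein prenylation and other products, was the gene of this list whose groups overlapped, at 13.6 and 12 CPM in Yap1 knockout livers, against 12.6 and 7.53 CPM in Yap control livers (log2 fold change 0.34, adjusted p = 0.577).

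The squalene and sterol steps, from squalene synthase to the last reductases, had a median log2 fold change of 1.48 in the Yap1 comparison. Of the 13 genes, 12 were above 0 and 10 were higher with no overlap, against 23.6% of all genes tested. EdgeR called 0 and DESeq2 called 7 higher, against 2.06% of the genes DESeq2 tested. Hsd17b7, a ketosteroid reductase of the demethylation steps (GRCm38 chr1:169949535-169969241, minus strand), had the smallest p of the 27 genes. Hsd17b7 had 199.6 and 340.5 CPM in Yap1 knockout livers, against 60.5 and 59.4 CPM in Yap control livers. In the Ctgf line it had 73.4 and 62 CPM in libraries labelled Ctgf knockout, against 85.6 and 75.3 CPM in Ctgf control livers. The 6 libraries other than the knockouts lay close together, and Yap controls 1 and 2 were nearly equal for this gene. The knockouts were 4.51-fold higher than the Yap controls (log2 fold change 2.17, SE 0.281, adjusted p = 0.0557, DESeq2 adjusted p = 6.67e-10).

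Lss, the cyclase that forms lanosterol (GRCm38 chr10:76531588-76557138, plus strand), was 5.01-fold higher. Lss had 166 and 243 CPM in Yap1 knockout livers, against 31.9 and 49.8 CPM in Yap control livers. Libraries labelled Ctgf knockout had 105 and 58.5 CPM of it, against 89.2 and 75.9 CPM in Ctgf control livers. The Yap1 knockouts were the highest and the Yap controls the lowest of the 4 groups, with no overlap (log2 fold change 2.32, SE 0.366, adjusted p = 0.0849). Nsdhl, the dehydrogenase that works just before Hsd17b7 in the same demethylation (GRCm38 chrX:72918557-72958514, plus strand), was 4.57-fold higher. Nsdhl had 116 and 166 CPM in Yap1 knockout livers, against 18.9 and 43 CPM in Yap control livers. Its level was 32.7 and 52.1 CPM in libraries labelled Ctgf knockout, against 47.7 and 35.7 CPM in Ctgf control livers. Yap control 2 lay within the range of the Ctgf line and Yap control 1 below it, and both knockouts lay above all of these (log2 fold change 2.19, SE 0.429, adjusted p = 0.123).

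Sqle, Cyp51 and Msmo1 encode oxygen-using enzymes of the route, as does Sc5d, which had a smaller fold change. Sqle, squalene epoxidase (GRCm38 chr15:59315077-59331192, plus strand), had 254 and 316 CPM in Yap1 knockout livers, against 53.2 and 111 CPM in Yap control livers (log2 fold change 1.80, SE 0.355, adjusted p = 0.123). Cyp51, the lanosterol demethylase (GRCm38 chr5:4081145-4104746, minus strand), had 360.3 and 471 CPM in Yap1 knockout livers, against 80.2 and 146 CPM in Yap control livers (log2 fold change 1.88, SE 0.365, adjusted p = 0.123). Msmo1, the sterol methyl oxidase (GRCm38 chr8:64718139-64733792, minus strand), had 304 and 425 CPM in Yap1 knockout livers, against 54.1 and 146 CPM in Yap control livers (log2 fold change 1.87, SE 0.434, adjusted p = 0.161). For each of the 3 both knockouts lay above all 6 other libraries, and each was called by DESeq2 (adjusted p = 1.51e-04 for Sqle, 8.29e-05 for Cyp51 and 0.00115 for Msmo1). Dhcr7, which reduces the last precursor to cholesterol (GRCm38 chr7:143823145-143848410, plus strand), had close replicates in the Yap1 knockouts but not in the Yap controls. It stood at 132 and 144 CPM in Yap1 knockout livers, against 39 and 60.0 CPM in Yap control livers (log2 fold change 1.48, SE 0.258, adjusted p = 0.0976). Fdft1, squalene synthase, had 75 and 108 CPM in Yap1 knockout livers, against 19.2 and 53.8 CPM in Yap control livers (log2 fold change 1.32, SE 0.436, adjusted p = 0.272).

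The remaining sterol genes had smaller fold changes. Lbr, a nuclear envelope protein that is also a sterol reductase, had 42 and 37.5 CPM in Yap1 knockout livers, against 27.4 and 16.1 CPM in Yap control livers (log2 fold change 0.87, adjusted p = 0.250). Tm7sf2, the other reductase of the same step, overlapped between the groups at 32.9 and 39.9 CPM in Yap1 knockout livers, against 18.1 and 34.2 CPM in Yap control livers (log2 fold change 0.48, adjusted p = 0.524). The pair thus differed in whether the groups overlapped, which is no test of a difference between the genes. Sc5d, the sterol desaturase, had 289.9 and 353 CPM in Yap1 knockout livers, against 161 and 231 CPM in Yap control livers (log2 fold change 0.71, adjusted p = 0.296). 0610007P14Rik, named Erg28 in RefSeq, whose yeast counterpart holds the demethylating enzymes together, had 43.9 and 52.6 CPM in Yap1 knockout livers, against 25.3 and 44.2 CPM in Yap control livers (log2 fold change 0.48, adjusted p = 0.494). Ebp, the sterol isomerase that follows the demethylation (GRCm38 chrX:8185329-8193512, minus strand), was the 1 gene of the 27 below 0. Ebp had 92.2 and 109.6 CPM in Yap1 knockout livers, against 75.3 and 129 CPM in Yap control livers. In the Ctgf line it had 108 and 132 CPM in libraries labelled Ctgf knockout, against 116 and 104 CPM in Ctgf control livers. The 8 values of Ebp overlapped across all groups, and the log2 fold change in the Yap1 comparison was -0.02 (SE 0.278, adjusted p = 0.982), with a sign that depended on the setting.

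**Figure D4:**
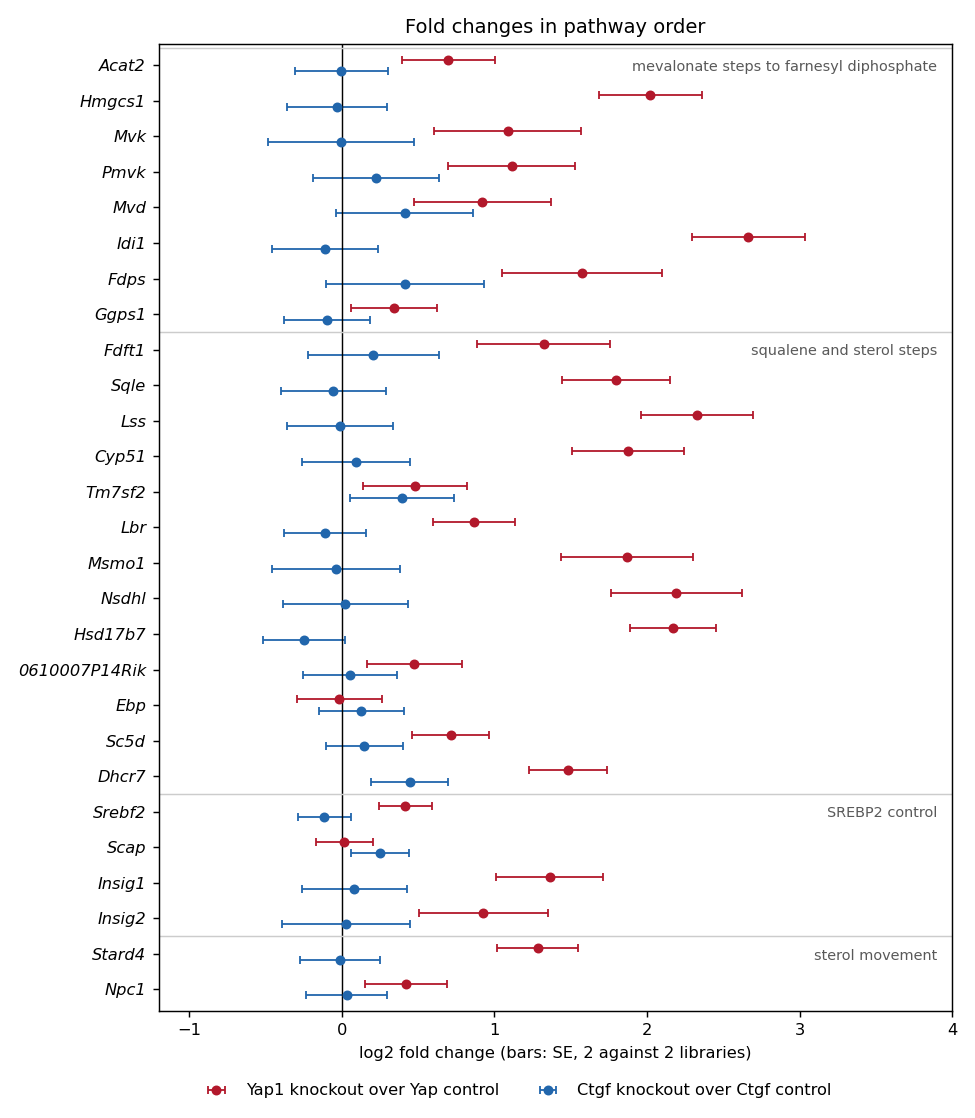
Log2 fold change with its SE for the 27 genes in pathway order, for Yap1 knockout over Yap control (red) and Ctgf knockout over Ctgf control (blue), 2 libraries against 2. Red points run from -0.02 (Ebp) to 2.66 (Idi1) and blue points from -0.25 (Hsd17b7) to 0.45 (Dhcr7).

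Among the genes of the switch itself, those that restrain SREBP2 had the larger fold changes. Insig1, which holds SCAP in the endoplasmic reticulum and is itself a target of SREBP2 (GRCm38 chr5:28071363-28078662, plus strand), was 2.57-fold higher. Insig1 had 201 and 237 CPM in Yap1 knockout livers, against 60.2 and 110.4 CPM in Yap control livers. Libraries labelled Ctgf knockout had 68.4 and 118 CPM of it, against 87.8 and 88 CPM in Ctgf control livers. Both knockouts lay above all 6 other libraries (log2 fold change 1.36, SE 0.351, adjusted p = 0.195, DESeq2 adjusted p = 0.0123). Insig2, the second INSIG protein (GRCm38 chr1:121304353-121332589, minus strand), varied more between replicates. Insig2 had 401 and 628 CPM in Yap1 knockout livers, against 161 and 381 CPM in Yap control livers. Its level was 154 and 207 CPM in libraries labelled Ctgf knockout, against 198 and 156 CPM in Ctgf control livers. The lower knockout lay just above the higher Yap control (log2 fold change 0.93, SE 0.42, adjusted p = 0.382). The ratio of Insig1 to Insig2 in CPM was 0.502 and 0.378 in the Yap1 knockouts, against 0.374 and 0.290 in the Yap controls, with 0.443 and 0.568 in libraries labelled Ctgf knockout, against 0.443 and 0.563 in the Ctgf controls.

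Srebf2 and Scap, the factor and its escort, had the smaller fold changes. Srebf2 had 101 and 97.4 CPM in Yap1 knockout livers, against 78.4 and 70.0 CPM in Yap control livers. In the Ctgf line it had 85.8 and 88 CPM in libraries labelled Ctgf knockout, against 97.2 and 91.2 CPM in Ctgf control livers. The knockouts lay above the Yap controls by a narrow margin (log2 fold change 0.42, SE 0.175, adjusted p = 0.355). Both were also the highest of the 8 libraries, the lower one barely so, at 97.4 CPM against 97.2 CPM in Ctgf control 1. Scap had 147 and 157 CPM in Yap1 knockout livers, against 135 and 165 CPM in Yap control livers. Libraries labelled Ctgf knockout had 127 and 131 CPM of it, against 105 and 112 CPM in Ctgf control livers. The Yap-line groups overlapped for Scap (log2 fold change 0.02, SE 0.190, adjusted p = 0.970), and its sign depended on the setting. SREBP2 is controlled mainly by cleavage of the protein, which these counts do not measure.

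Of the genes that move sterol, Stard4, a soluble carrier that passes cholesterol between membranes and is a known SREBP2 target, was 2.43-fold higher. Stard4 had 109.9 and 174 CPM in Yap1 knockout livers, against 63.2 and 53.3 CPM in Yap control livers. Its level was 53.7 and 70.4 CPM in libraries labelled Ctgf knockout, against 61.7 and 63.7 CPM in Ctgf control livers. The 6 libraries other than the knockouts lay close together and the groups did not overlap (log2 fold change 1.28, SE 0.266, adjusted p = 0.135, DESeq2 adjusted p = 0.00135). Npc1, the lysosomal membrane protein that releases cholesterol taken up with lipoproteins, had 179.7 and 206 CPM in Yap1 knockout livers, against 135 and 154 CPM in Yap control livers (log2 fold change 0.42, SE 0.267, adjusted p = 0.484).

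Per kilobase of exon, the order of levels among the 27 genes in the Yap1 knockouts ran from Insig2 and Hmgcs1 to Idi1. Insig2 had 115 and 181 CPM per kb in Yap1 knockout livers, against 46.3 and 109.6 CPM per kb in Yap control livers. Hmgcs1 had 141 and 163 CPM per kb in Yap1 knockout livers, against 25.5 and 49.6 CPM per kb in Yap control livers, and the ranges of Insig2 and Hmgcs1 overlapped in the knockouts. Cyp51 came next, with 81.6 and 107 CPM per kb in Yap1 knockout livers, against 18.2 and 33.2 CPM per kb in Yap control livers. Idi1 was the lowest, with 1.81 and 1.94 CPM per kb in Yap1 knockout livers, against 0.221 and 0.376 CPM per kb in Yap control livers.

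The sources used here do not give the strand setting of the counting, and 11 of the 27 genes share exon bases with another gene of the GENCODE M21 annotation, 3 with a gene on the same strand and 9 with a gene on the other strand. Among them are Fdft1 with Ctsb, Ggps1 with Arid4b, Cyp51 with Akap9, Tm7sf2 with Vps51 and Npc1 with Rmc1. The 16 genes that share none had a median log2 fold change of 1.10 in the Yap1 comparison, against 1.32 in the 11 that share some. Of the 16, 14 were higher with no overlap, against 23.6% of all genes tested.

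Markers of some other cells also differed between the Yap1 knockouts and the Yap controls. Over all genes tested, 23.6% were higher and 20.8% lower with no overlap in this comparison. Neutrophil markers summed to 1111 and 558 CPM in Yap1 knockout livers, against 164 and 274 CPM in Yap control livers, and 11 of the 12 were higher with no overlap. Erythroid markers summed to 467 and 403 CPM in Yap1 knockout livers, against 123 and 229 CPM in Yap control livers, and 6 of 6 were higher with no overlap. Periportal hepatocyte markers summed to 5169 and 6179 CPM in Yap1 knockout livers, against 4529 and 3793 CPM in Yap control livers. Arg1 alone gave 2406 and 3474 CPM of the sum in the knockouts, against 1299 and 1286 CPM in the controls. Pck1, the other large part, overlapped, at 1930 and 1951 CPM against 2614 and 1845 CPM. Of the periportal markers 2 of 7 were higher and 1 was lower without overlap, near the shares over all genes. Pericentral hepatocyte markers summed to 395 and 496 CPM in Yap1 knockout livers, against 415 and 987 CPM in Yap control livers, with 5 of 8 lower without overlap. Kupffer cell markers summed to 602 and 619 CPM in Yap1 knockout livers, against 651 and 744 CPM in Yap control livers. Biliary markers summed to 636 and 654 CPM in Yap1 knockout livers, against 376 and 1478 CPM in Yap control livers, and stellate cell markers to 1105 and 1142 CPM in Yap1 knockout livers, against 1114 and 893 CPM in Yap control livers. EdgeR called 0 markers of these lists in this comparison, no marker of them was at 0 in either group, and their part in the result was not tested.

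The Ctgf comparison asked the same question of the Ctgf conditional knockouts. The 27 genes had a median log2 fold change of 0.03, against 0.0064 over all genes tested, with 15 above 0 and 12 below and a range from -0.25 to 0.45. EdgeR called 0 of the 27 (adjusted p = 1 for each), as it did of all 13999 genes (0%). At an unadjusted p under 0.05, 0 members were higher and 0 lower, against 0.657% and 1.32% of all genes. DESeq2 and limma-voom called 0 members each, where DESeq2 called 0.0227% and limma-voom 0.00714% of the genes tested. The groups did not overlap for 5 members that were higher (15.5% of all genes) and for 2 that were lower (16.8%). Dhcr7 had 56.6 and 60.5 CPM in the libraries labelled Ctgf knockout, against 49.2 and 36.8 CPM in the Ctgf controls (log2 fold change 0.45, SE 0.253). For Scap, the escort protein, the log2 fold change came to 0.25 (SE 0.190), and for Hsd17b7 to -0.25 (SE 0.269), from the levels given above. Tm7sf2 had 33.1 and 52.2 CPM in the libraries labelled Ctgf knockout, against 34.4 and 30.6 CPM in the Ctgf controls (log2 fold change 0.39, SE 0.339). Without the library labelled Ctgf knockout 2 the median over the 27 genes was 0.0006 and without Ctgf knockout 1 it was 0.23, with 0 members called in either case. Neutrophil markers summed to 80.7 and 160 CPM in the libraries labelled Ctgf knockout, against 195 and 228 CPM in the Ctgf controls, with 8 of 12 lower and 0 higher without overlap. Kupffer cell markers summed to 286 and 559.6 CPM in the libraries labelled Ctgf knockout, against 534 and 836 CPM in the Ctgf controls, with 5 of 6 lower without overlap. Biliary markers were lower without overlap in 4 of 6. Over all genes tested, 16.8% were lower without overlap, and the part of these markers in the result was not tested.

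The difference between the effects was tested as Yap1 effect minus Ctgf effect. The 27 genes had a median difference of 1.04 on the log2 scale, against -0.0082 over all genes tested, and 25 were above 0. EdgeR called 0 of the 27 and 0 of all genes (0%), with the members' adjusted p from 0.271 to 0.956. At an unadjusted p under 0.05, 12 members were higher and 0 lower, against 4.68% and 4.19% of all genes. With limma-voom 0 members and 0 of all genes (0%) were called. DESeq2 called 6 of the 27 higher, against 0.649% of the genes it tested. Hsd17b7 had a difference of 2.42 (SE 0.386, edgeR adjusted p = 0.271, DESeq2 adjusted p = 1.67e-05). The difference was 2.77 for Idi1 (SE 0.504), 2.34 for Lss (SE 0.500) and 2.06 for Hmgcs1 (SE 0.467), with edgeR adjusted p = 0.284, 0.397 and 0.412. Without Yap control 1 edgeR called 7 members, against 14.5% of all genes, with a median difference of 0.58, and without Yap control 2 it called 0 of the members and 0 of all genes, with a median difference of 1.65. Neutrophil markers moved with this difference. Without overlap, 11 of 12 were higher in the Yap1 comparison (23.6% of all genes) and 8 of 12 lower in the Ctgf comparison (16.8%). Their part in the difference was not tested.

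The control groups of both lines were also set side by side, since the Yap controls are the baseline of the Yap1 comparison. Line, virus and library order differ together here and cannot be told apart. Over the 27 genes the median log2 fold change of Yap control over Ctgf control was -0.19, against 0.0411 over all genes tested, with 7 above 0 and 20 below. It was -0.60 without Yap control 2, with 4 members called against 7.07% of all genes, and turned to 0.07 without Yap control 1, with 4 called against 25.6% of all genes. EdgeR called 1 of the 27, Npc1, against 2.38% of all genes tested, and limma-voom called 1, against 2.39%. DESeq2 called 2, Npc1 and Idi1, against 11.3% of the genes it tested. At an unadjusted p under 0.05, 1 member was higher and 4 were lower, against 12.2% and 10.4% of all genes. Groups did not overlap for 1 member that was higher and 8 that were lower, against 26.1% and 27% of all genes.

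Npc1 fell in the Yap controls relative to the Ctgf controls, and the Yap1 knockouts lay near the Yap controls. It had 179.7 and 206 CPM in the Yap1 knockouts and 135 and 154 CPM in Yap control livers, against 624 and 388 CPM in the libraries labelled Ctgf knockout and 512 and 479 CPM in the Ctgf controls. The 4 Yap-line values lay below all 4 Ctgf-line values, and Yap control over Ctgf control had a log2 fold change of -1.78 (SE 0.275, edgeR adjusted p = 0.0322). The call was lost, with adjusted p from 0.0852 to 0.303, when either Ctgf control or either Yap1 knockout was left out, or when the fit held only the control libraries, and the log2 fold change stayed between -1.88 and -1.66 in every setting run. Idi1 had -1.27 (SE 0.364, adjusted p = 0.105) in the control groups, Lss -1.02 (SE 0.353, adjusted p = 0.150) and Scap 0.47 (SE 0.190, adjusted p = 0.198). Stellate cell markers summed to 1114 and 893 CPM in Yap control livers, against 425 and 422 CPM in the Ctgf controls. Of these 8 markers 6 were higher and 0 lower without overlap, against 26.1% and 27% of all genes. EdgeR called 4 of the 8, against 2.38% of all genes, and the folds ran from 0.85 for Reln to 22.9 for Acta2. Pericentral hepatocyte markers summed to 415 and 987 CPM in Yap control livers, against 1646 and 1640 CPM in the Ctgf controls, with 4 of 8 lower and 0 higher without overlap. The part of both lists in the result was not tested.

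Genes next to the pathway were followed in 7 further lists in the Yap1 comparison, and edgeR called 0 genes of each. Other SREBP2 targets came nearest to the 27 genes, with a median log2 fold change of 0.77 over 10 genes, 9 above 0. Of the 10, 7 were higher with no overlap, against 23.6% of all genes tested. At an unadjusted p under 0.05, 6 were higher, against 6.64%. DESeq2 called 4 higher, against 2.06% of the genes it tested. Acss2, which makes acetyl-CoA from acetate, had 47.6 and 68.4 CPM in Yap1 knockout livers, against 17.2 and 26.5 CPM in Yap control livers (log2 fold change 1.41, SE 0.282, adjusted p = 0.126). The 1 gene of that list below 0 was Tmem97, a membrane protein that binds Npc1, named here after its value was seen, at 38.2 and 38.9 CPM in Yap1 knockout livers, against 26.5 and 78 CPM in Yap control livers. Other SREBP processing and degradation genes had a median of 0.10 over 10 genes. At an unadjusted p under 0.05, 1 was higher and 0 were lower, against 6.64% and 7.14% of all genes tested. Mbtps2, a protease that cuts SREBP in the Golgi, had 35.2 and 39.3 CPM in Yap1 knockout livers, against 27.6 and 17.7 CPM in Yap control livers (log2 fold change 0.72, SE 0.256, adjusted p = 0.302), and Aup1, a factor of protein degradation in the endoplasmic reticulum, had a log2 fold change of -0.58 (SE 0.289). Further enzymes and electron donors of sterol synthesis had a median of -0.34 over 7 genes, 2 above 0 and 5 below. Pgrmc1, a heme-binding partner of cytochrome P450 enzymes, had 467 and 457 CPM in Yap1 knockout livers, against 742 and 774 CPM in Yap control livers (log2 fold change -0.71, SE 0.276, adjusted p = 0.331).

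Lists on the fate of sterol and on lipid synthesis under SREBP1c had medians near 0. Sterol efflux, esterification and LXR genes had a median of -0.02 over 12 genes and ran from -1.57 to 1.67. At an unadjusted p under 0.05, 1 was higher and 4 were lower, against 6.64% and 7.14% of all genes tested. DESeq2 called 1 higher and 2 lower, against 4.14% of the genes it tested in either direction. Abca1, which exports cholesterol to apolipoproteins and is a target of the sterol sensor LXR, had 575 and 755 CPM in Yap1 knockout livers, against 310.3 and 108 CPM in Yap control livers (log2 fold change 1.67, SE 0.442, adjusted p = 0.203). Nr1h3, which encodes LXR alpha, had 52 and 43.1 CPM in Yap1 knockout livers, against 71.7 and 89.6 CPM in Yap control livers (log2 fold change -0.76, SE 0.206, adjusted p = 0.210). Both knockouts were thus above both controls for Abca1 and below both for Nr1h3. Fatty acid synthesis genes had a median of 0.07 over 10 genes, 5 above 0 and 5 below. Elovl6, a fatty acid elongase, had 37.6 and 35.3 CPM in Yap1 knockout livers, against 26.4 and 25.1 CPM in Yap control livers (log2 fold change 0.50, SE 0.199, adjusted p = 0.335), and Acly, which supplies cytosolic acetyl-CoA, had a log2 fold change of 0.48 (SE 0.254). Genes of the non-sterol isoprenoid branch had a median of 0.05 over 13 genes, with log2 fold changes of 0.97 for Pdss1 (SE 0.286), a synthase of the ubiquinone side chain, and -0.62 for Rce1 (SE 0.278), a protease of prenylated proteins. Sterol carriers and contact-site proteins had a median of -0.04 over 10 genes, with -0.60 for Lipa (SE 0.200), the lysosomal acid lipase, and 0.61 for Gramd1c (SE 0.267), a sterol transfer protein at membrane contacts. No test of a difference between these lists was made.

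**Figure D5:**
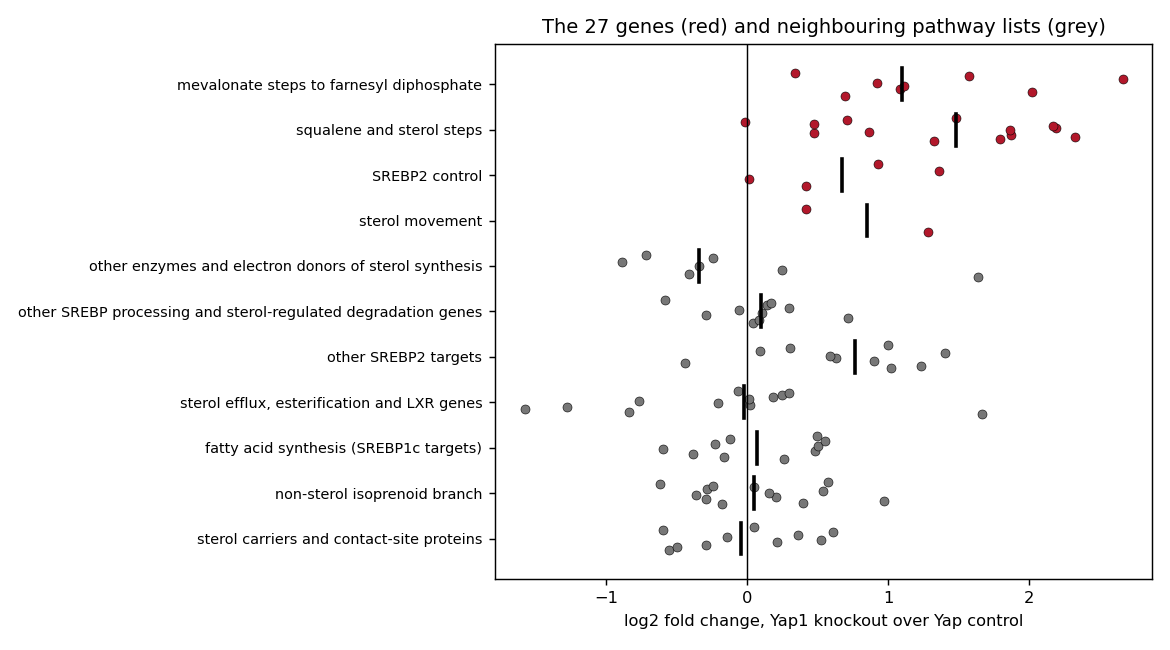
Log2 fold change of Yap1 knockout over Yap control for each gene of the 4 lists that make up the 27 genes (red) and of 7 neighbouring pathway lists (grey), with a bar at each list's median. The red lists have medians from 0.67 to 1.48 and the grey lists from -0.34 to 0.77.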

How the data were processed

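Liver RNA of 8 libraries in 4 groups of 2 was analysed from the whole-number read counts per gene that the authors deposited in 1 table (22155 genes, 4534 with no count). STAR 2.6.0a, HTSeq 0.6.1 and bcl2fastq 2.20.0.422 were used and mm10 and GRCm38 named, per the submitters' processing notes; these sources do not give the annotation or the strand setting. TruSeq and KAPA kits are both named, per the labels' protocols, and which library used which is not given. Counts were fitted with edgeR 4.0.16 in R 4.3.3 (TMM scaling, filterByExpr, quasi-likelihood F test, 8 libraries in 1 fit of the 4 groups, 4 residual degrees of freedom), which left 13999 genes with a biological coefficient of variation of 27.2%. Benjamini-Hochberg adjustment ran over all of them, with 0.05 as the threshold. CPM is the count scaled to the TMM-adjusted library total in the usual way. Fold changes are knockout over control, or Yap control over Ctgf control. DESeq2 1.42.0, limma-voom (limma 3.58.1), other filters and scalings, a replicate block and omission of libraries were alternatives. The scripts were tested on simulated data. Positions and exon lengths came from GENCODE M21 by symbol, and for 17 of the 22 genes with a promoter entry an entry matched the sense strand of a GENCODE transcript.

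All 27 genes are named in the Yap1 comparison, and in the others those past the threshold, filled up to 4 by smallest p. Further lists name the 2 genes with the smallest p in the Yap1 comparison, of which 2 are not reported here. The members and lists were chosen with earlier results of these data known.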

Additional observations from a re-analysis of the deposited data

How the results depend on the processing

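Among the 27 genes, edgeR called 0 in the Yap1 comparison, and this count was 11 with DESeq2, 3 with no low-count filter, 1 with the replicate block and 20 with Yap control 2 and the library labelled Ctgf knockout 2 both left out; leaving out 1 library at a time gave 0 to 12. Same-numbered libraries deviated together only weakly (correlation of deviations 0.0716 in the Yap line and 0.0678 in the Ctgf line). The titles assign each Yap control to a numbered knockout, which is Yap1 knockout 2 for Yap control 2 by its column name but carries the control's own column number for Yap control 1, and no shared litter, batch or day is stated. Over all genes, 4 were called, against 560 with DESeq2, 37 with no low-count filter, 19 with the replicate block, 0 with only the libraries of the comparison, 938 with both libraries left out, and 0 to 3728 with 1 library left out, the highest without Yap control 1. The members' median of 1.11 was 1.87 with both left out and 0.73 to 1.87 with 1 left out. Ebp turned to 0.0268 with limma-voom, 0.0299 with the replicate block and 0.42 with both left out, and ran from -0.38 to 0.42 with 1 left out. Scap turned to -0.0142 with only the libraries of the comparison and ran from -0.15 to 0.17 with 1 left out.

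In the Ctgf comparison DESeq2 called 4 of all genes and limma-voom 1, against 0. The members' median of 0.03 ran from -0.0717 to 0.23 with 1 library left out, and Ctgf itself ran from -1.92 to 0.71. For the difference of effects, members called were 0, against 6 with DESeq2 and 8 with both libraries left out, and 0 to 7 with 1 left out. Over all genes 0 became 166 with DESeq2, 2 with no low-count filter, 143 with both left out, and 0 to 2092 with 1 left out. The median difference of 1.04 was 1.88 with both left out and 0.58 to 1.65 with 1 left out. For Yap control over Ctgf control, 1 member called became 2 with DESeq2, 0 with only the libraries of the comparison, 13 with both left out, and 0 to 4 with 1 left out. Over all genes 333 became 1607 with DESeq2, 0 with only the libraries of the comparison, 4056 with both left out, and 0 to 3699 with 1 left out. No scaling moved the median of all genes by over 0.1. The difference of effects was not run with only the libraries of a comparison, since it needs all 8. The causes were not tested, and with 2 libraries a group the spread between replicates limits every call.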
